A study of Homo sapiens with 12 samples.

Results

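The genes described here are 42 targets of the transcription factor NRF2 and genes of xenobiotic metabolism, the enzymes and pumps that handle foreign and reactive compounds. They were measured as messenger RNA on 12 Affymetrix whole-transcript arrays in 2 established human lung cancer lines, HTB56 (also known as Calu-6) and A549 (a lung adenocarcinoma line). H3R and A3R are HTB56 and A549 cells after 3 rounds of selection in mice, in which cells injected into a vein formed nodules in the lungs. H0R and A0R are the unselected lines (0 rounds), each group has 3 arrays, and no sample had been treated with 5-azacytidine according to the labels. A member was a listed gene with a probe set annotated to exactly 1 gene symbol, and the probe set with the highest mean over the 12 arrays stood for the gene. Of the 42 genes 41 had such a probe set and all 41 passed the filter on dim signals, out of 16939 genes tested of 18417 with a probe set of exactly 1 symbol. AKR1B1, the aldose reductase gene, had none and has no value here.

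NRF2, encoded by NFE2L2, is a transcription factor that KEAP1 binds and delivers for degradation in resting cells. Electrophiles and oxidants modify KEAP1, NRF2 then accumulates and, paired with a small MAF protein, binds the antioxidant response element in the promoters and enhancers of genes for glutathione synthesis, thioredoxin reduction, NADPH supply, aldehyde and quinone reduction and efflux. In lung adenocarcinoma the pathway is often switched on by mutation of KEAP1 or NFE2L2, and A549 is known to carry a loss-of-function KEAP1 mutation. Cytochromes P450 such as CYP1A1 and CYP1B1 answer mainly to another factor, the aryl hydrocarbon receptor.

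The core of the antioxidant response element, TGACNNNGC read on both strands, was searched for in the RefSeq promoter windows of assembly GRCh38.p14, which run from 250 bases before to 50 bases after a gene's start. Of the 42 genes 32 had a window, and 11 of these 32 (34.4%) held a match, against 16.1% of all 27305 genes with a window. The core of the aryl hydrocarbon receptor element, GCGTG on both strands, lay in the windows of 18 of the 32 (56.3%), against 40.6% of all genes. A gene counted if any of its windows held a match, and some genes have several windows. By window, the first motif lay in 12 of 46, against 13.3% of all 35116 windows. The second lay in 22 of 46, against 36.5%. In ABCG2 and MGST1 the only match to the first motif lay after the start. Shown here are 5 genes, upstream bases only and 5′ to 3′ on the gene's strand, since their promoters differ in the motif while the levels of 4 of them differ strongly between the lines: GPX2 (chr14:64942746-64942995, minus strand), GCLM (chr1:93909431-93909680, minus strand), ME1 (chr6:83431052-83431301, minus strand), GSTP1 (chr11:67583562-67583811, plus strand) and NQO1 (chr16:69726561-69726810, minus strand). Capitals mark the match to TGACNNNGC or its reverse complement.
GPX2: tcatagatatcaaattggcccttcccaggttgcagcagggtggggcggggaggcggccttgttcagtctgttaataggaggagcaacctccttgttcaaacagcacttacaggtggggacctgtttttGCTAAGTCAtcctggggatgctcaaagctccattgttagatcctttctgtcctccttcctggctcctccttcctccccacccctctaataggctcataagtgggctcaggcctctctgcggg
GCLM: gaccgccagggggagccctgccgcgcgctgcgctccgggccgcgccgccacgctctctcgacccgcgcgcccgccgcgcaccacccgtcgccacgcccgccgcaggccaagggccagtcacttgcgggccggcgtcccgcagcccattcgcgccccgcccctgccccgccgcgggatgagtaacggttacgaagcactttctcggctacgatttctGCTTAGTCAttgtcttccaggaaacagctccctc
ME1: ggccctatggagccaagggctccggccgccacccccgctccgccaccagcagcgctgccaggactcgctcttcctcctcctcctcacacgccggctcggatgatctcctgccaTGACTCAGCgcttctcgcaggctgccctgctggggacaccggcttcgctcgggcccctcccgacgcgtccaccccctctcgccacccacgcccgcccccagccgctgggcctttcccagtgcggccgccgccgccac
GSTP1: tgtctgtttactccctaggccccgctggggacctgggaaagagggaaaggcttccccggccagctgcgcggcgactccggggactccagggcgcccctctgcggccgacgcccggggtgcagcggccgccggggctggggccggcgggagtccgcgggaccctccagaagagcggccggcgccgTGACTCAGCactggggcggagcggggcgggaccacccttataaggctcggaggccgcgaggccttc
NQO1: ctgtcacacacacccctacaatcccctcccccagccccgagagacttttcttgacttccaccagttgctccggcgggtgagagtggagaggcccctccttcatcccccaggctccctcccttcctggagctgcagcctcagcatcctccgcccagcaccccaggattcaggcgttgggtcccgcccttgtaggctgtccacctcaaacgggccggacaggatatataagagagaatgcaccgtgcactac
The match begins 122 bases before the start of GPX2, 34 before GCLM, 137 before ME1 and 66 before GSTP1. ME1 holds 2 matches in its searched window, and the second lies after the start, beyond the bases printed. The window of NQO1 held no match, which says only that these letters are not in it. A match is a description of letters and no evidence of binding.

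All signals are log2 RMA values, so a difference of 1 is a factor of 2, and a gene was called where limma's adjusted p over the 16939 genes lay below 0.05. Array medians lay between 5.55 and 5.67, and replicate arrays had a Pearson r over probe sets of 0.988 to 0.995. It is not stated in the labels if replicates came from separate cultures, so the p-values reflect the spread between these samples alone, which may be technical. Precision is limited by the 3 arrays per group. All 10 markers of lung epithelium and carcinoma lay above the 20th percentile of the array on all 12 arrays. Among them the keratin genes KRT8 and KRT18 had group means between 11.20 and 13.55 and the lung lineage genes NKX2-1, SFTPB, SFTPC and NAPSA between 4.14 and 5.76, while the cadherin gene CDH1 averaged 4.50 in H3R and 4.55 in H0R, against 8.68 in A3R and 9.53 in A0R. Of the markers of other cell types, 6 or 7 of 8 fibroblast, 4 of 6 endothelial, 3 or 4 of 5 leukocyte and 4 of 6 liver genes lay above that percentile on all arrays of a group, with group means up to 8.02 for COL1A1 and 9.51 for CD68. DCN, EMCN, PTPRC, ALB and CYP3A4 did so on 0 of 12 arrays. There were 3 arrays set aside in a check added after seeing the data. A0R replicate 2 was the highest A0R array for 4 of 4 genes bright in HTB56 and dim in A549, and among 10 non-member genes bright in A549 and dim in HTB56, H0R replicate 2 was the highest H0R array for 7 and H3R replicate 2 the lowest H3R array for 9. The counts below are also given without these 3 arrays. H3R replicate 1, the highest H3R array for 7 of the 10 genes, and A0R replicate 1, the lowest A0R array for 3 of the 4, were kept. Without H3R replicate 1 alone, 11 of the genes described were called in H3R against H0R, where 15.8% of all genes were, against 12 and 19.5% with all arrays.

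Most of these genes were lower in HTB56 than in A549, whether selected or not. Of the 41 genes, 36 were lower and 2 higher in H0R than in A0R. Of all genes tested, 45.2% were called in this comparison, 24.9% higher and 20.3% lower. ADH6 passed the filter on dim signals only through the A0R arrays and so had to be lower in H0R. Without it 37 of 40 genes were called. The median log2 difference of the 41 was -2.24, against -0.01 over all genes tested. Between the selected lines, 35 were lower and 2 higher in H3R than in A3R, where 44.6% of all genes tested were called, 24.9% higher and 19.7% lower. The median there was -1.98, against 0.01 over all genes tested. The genes were chosen with earlier results of these data known, so their share beside that of all genes is a description and not a test. The comparisons of the lines and of selection share arrays and are not independent of each other. Without the 3 arrays set aside, 35 were lower and 2 higher in each of the 2 comparisons, where 35.3% of all genes were called between the unselected and 37.8% between the selected lines. The 3 arrays were picked by genes that differ between the lines, so these counts are a description and not a check.

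**Figure D1:**
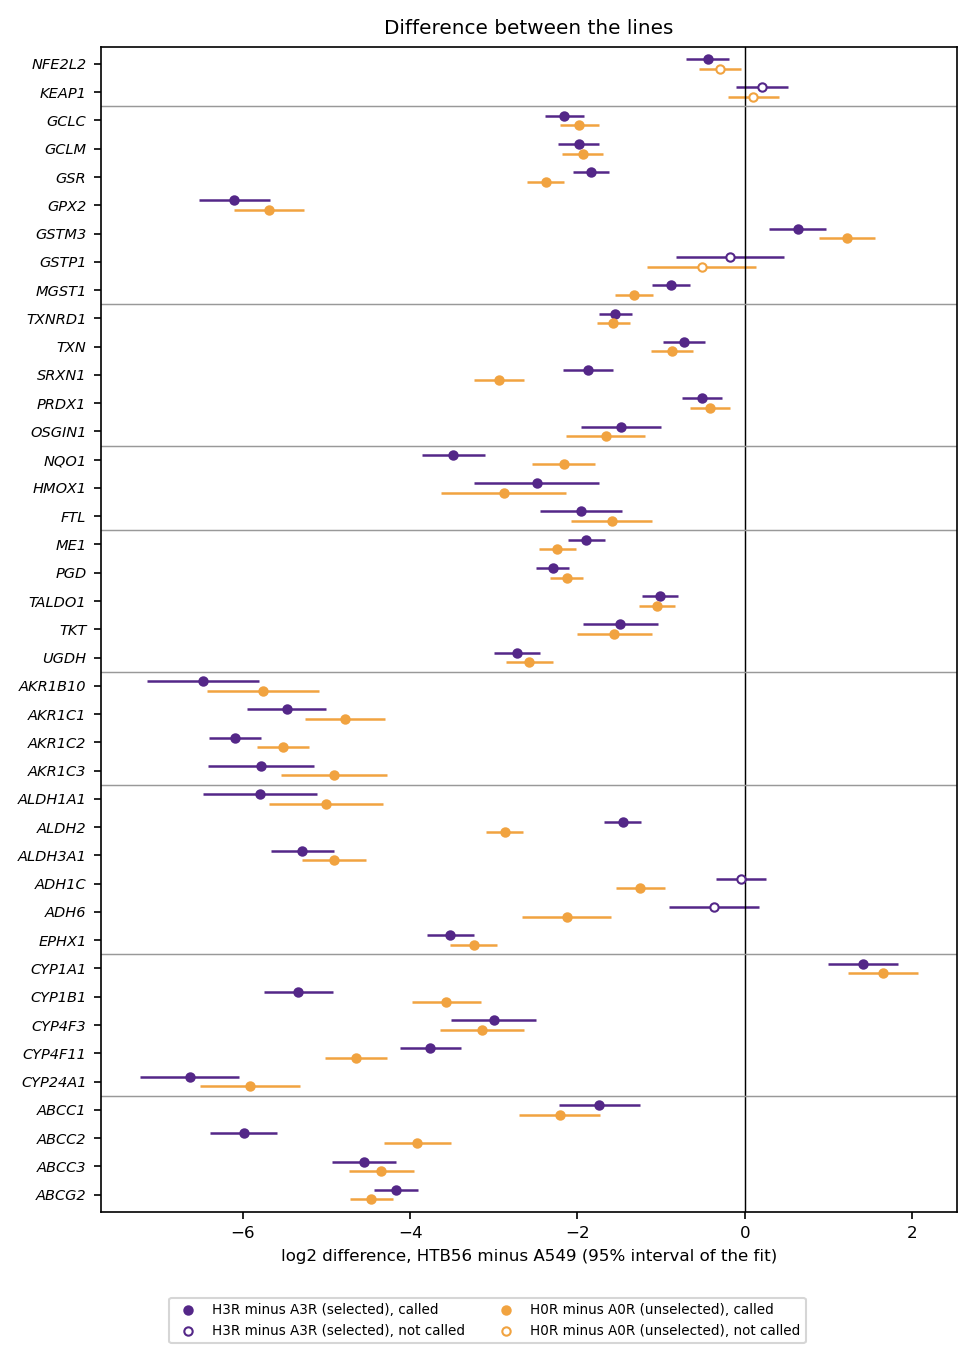
Log2 difference of each of the 41 genes between the lines (x axis, HTB56 minus A549, with the 95% interval of the fit), for the selected lines in purple and the unselected lines in orange, in blocks by role. Filled points were called, open points were not, and most genes lie left of 0, down to CYP24A1 at -6.64 between the selected lines.

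The regulators themselves differed little. NFE2L2, the gene of NRF2, measured 9.15, 9.10 and 9.34 on the H3R arrays and 9.25, 9.37 and 9.56 on the H0R arrays. In A549 it measured 9.64, 9.61 and 9.68 on the A3R arrays and 9.73, 9.48 and 9.86 on the A0R arrays. The ranges of H0R and A0R overlapped, and the log2 difference of -0.30 (SE 0.118) had an adjusted p of 0.0533. It was called with the replicate number as a block, at adjusted p = 0.0109. Between H3R and A3R, whose arrays did not overlap, it was -0.44 (SE 0.118, adjusted p = 0.00643).

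KEAP1, which targets NRF2 for degradation, measured 9.46, 9.43 and 9.12 on the H3R arrays and 9.53, 9.43 and 9.21 on the H0R arrays. In A549 it measured 9.30, 9.17 and 8.93 on the A3R arrays and 9.45, 9.38 and 9.03 on the A0R arrays. All 4 groups overlapped. The log2 difference was 0.10 between H0R and A0R, with a 95% interval of -0.21 to 0.41, and 0.21 between H3R and A3R, with an interval of -0.10 to 0.51. The second was called with the replicate block, at adjusted p = 0.0228. The arrays measured transcript levels and not the KEAP1 mutation itself.

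The aldo-keto reductases, NADPH-dependent enzymes that reduce carbonyl compounds, steroids and prostaglandins, were among the genes with the largest differences. AKR1B10, which reduces retinaldehyde and reactive aldehydes, measured 6.78, 5.5 and 6.78 on the H3R arrays and 6.53, 7.76 and 6.84 on the H0R arrays, against 12.86, 12.88 and 12.75 on the A3R arrays and 12.75, 12.82 and 12.86 on the A0R arrays. AKR1C1, which inactivates progesterone, measured 8.16, 7.32 and 7.93 in H3R and 8.14, 9.11 and 8.46 in H0R, against 13.33, 13.34 and 13.17 in A3R and 13.24, 13.33 and 13.47 in A0R. For both genes every HTB56 array lay more than 4 log2 units below every A549 array. AKR1C2, which reduces dihydrotestosterone, measured 7.22, 6.79 and 6.82 in H3R and 7.19, 7.66 and 7.29 in H0R, against 13.01, 13.07 and 13.02 in A3R and 12.72, 12.92 and 13.08 in A0R. AKR1C3, which forms testosterone and prostaglandin F, measured 8.06, 6.85 and 8.19 in H3R and 7.96, 9.0 and 8.70 in H0R, against 13.48, 13.44 and 13.53 in A3R and 13.37, 13.37 and 13.65 in A0R. The 4 genes were 54.3, 27.4, 46.1 and 30.1 times lower in H0R than in A0R, in the order named, with SEs between 0.15 and 0.31 on the log2 scale. AKR1C1, AKR1C2 and AKR1C3 are close copies of one another, so their probes may pick up each other's transcripts and the order within the family is uncertain. A second probe set of AKR1C1 had means of 5.25 in H3R and 5.78 in H0R, against 8.26 in A3R and 7.76 in A0R, also lower in HTB56.

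Other genes with differences above 4 log2 units between H0R and A0R served several roles. GPX2, a glutathione peroxidase, measured 6.21, 5.64 and 6.11 on the H3R arrays and 6.31, 7.08 and 6.37 on the H0R arrays, against 12.19, 12.26 and 11.82 in A3R and 12.33, 12.30 and 12.18 in A0R. CYP24A1, which degrades active vitamin D, measured 6.01, 5.17 and 6.46 in H3R and 6.17, 7.29 and 6.73 in H0R, against 12.48, 12.51 and 12.57 in A3R and 12.57, 12.65 and 12.71 in A0R. These 2 genes were 51.5 and 60.2 times lower in H0R than in A0R, and the lines did not overlap. The aldehyde dehydrogenase genes ALDH1A1, which oxidises retinaldehyde, and ALDH3A1, which clears lipid aldehydes, differed by -5.01 (SE 0.318) and -4.91 (SE 0.178). CYP4F11, a fatty acid hydroxylase, differed by -4.65 (SE 0.171). The efflux pump genes ABCG2, which exports many anticancer drugs, and ABCC3, which exports glucuronides, differed by -4.46 (SE 0.121) and -4.34 (SE 0.179). ABCC2 and CYP1B1, described below, averaged 7.78 and 6.77 in H0R, against 11.69 and 10.33 in A0R. Between the selected lines their means were 5.66 and 4.87 in H3R, against 11.65 and 10.21 in A3R. RMA compresses differences near background, so a fold of a gene that was dim in HTB56 may be understated.

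**Figure D2:**
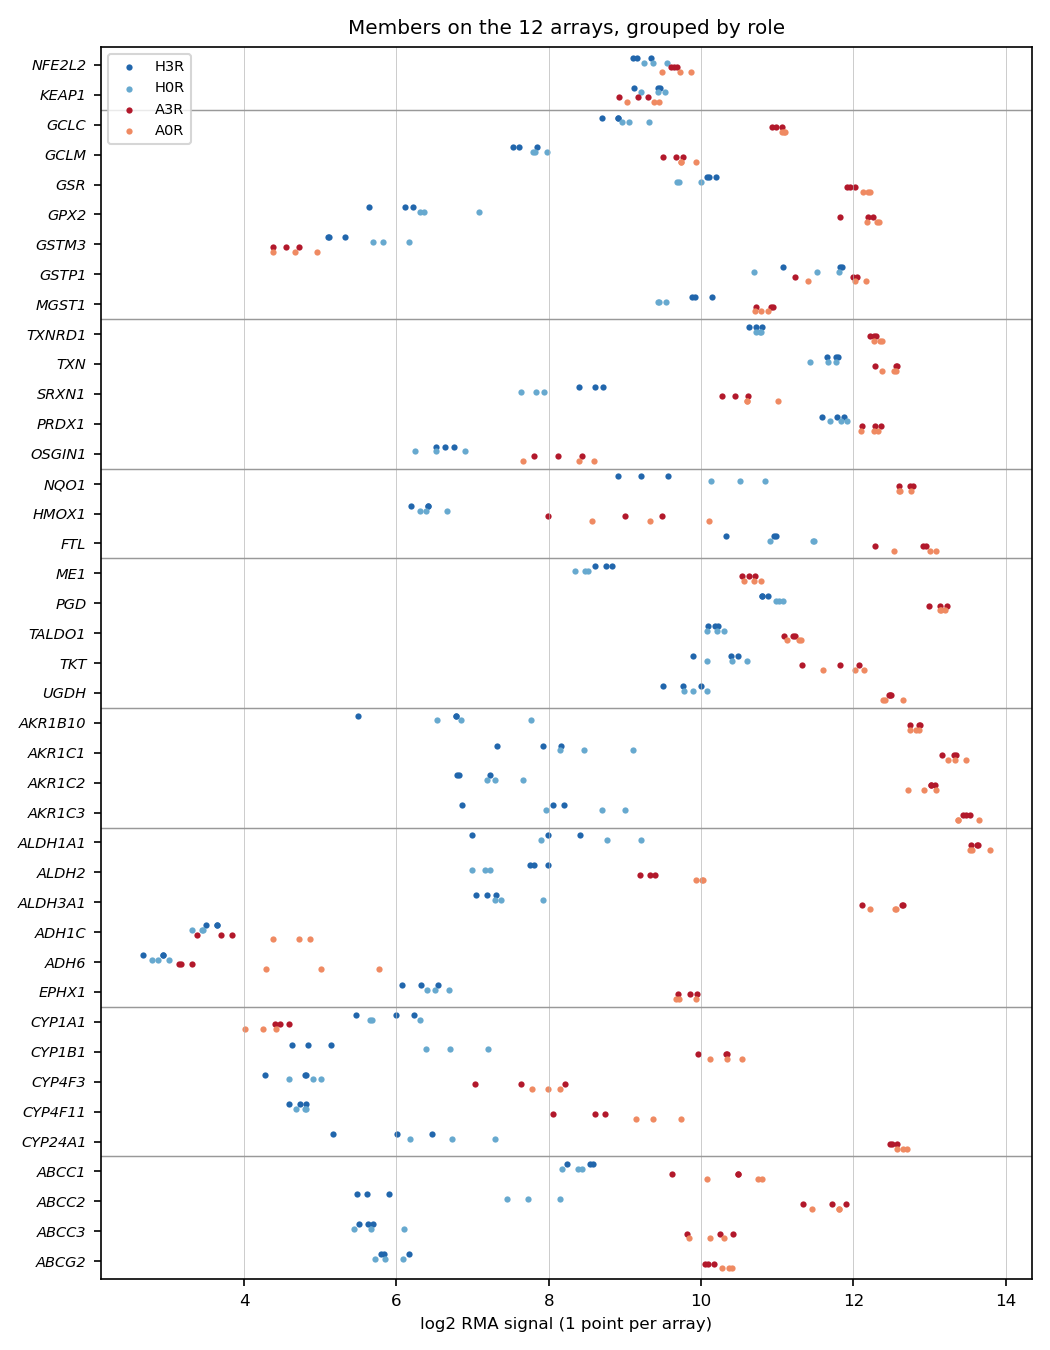
Log2 RMA signal (x axis) of the 41 genes on each of the 12 arrays, 1 point per array, in blocks by role, with H3R and H0R in blues and A3R and A0R in reds. The A549 arrays of the 4 aldo-keto reductases lie between 12.72 and 13.65 and the HTB56 arrays between 5.5 and 9.11. Points of different genes share the axis, but their heights are not comparable between probe sets.

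Further NRF2 targets were lower in HTB56 by smaller steps. NQO1, the quinone reductase often used as a readout of NRF2 activity, was 4.48 times lower in H0R than in A0R (log2 difference -2.16, SE 0.174). HMOX1, which breaks down haem, differed by -2.88 (SE 0.349) and FTL, the ferritin light chain gene, by -1.59 (SE 0.227). For glutathione, GCLC and GCLM, the subunits of the enzyme that limits its synthesis, differed by -1.98 (SE 0.108) and -1.94 (SE 0.115), and GSR, which reduces the oxidised form, by -2.38 (SE 0.102). In the thioredoxin system SRXN1, which repairs over-oxidised peroxiredoxins, differed most, at -2.94 (SE 0.140), followed by TXNRD1 at -1.57, TXN at -0.87 and the peroxiredoxin gene PRDX1 at -0.42. OSGIN1, a growth inhibitor induced by oxidative stress, differed by -1.66. All of these were called. PRDX1 was not called without the 3 arrays, at a difference of -0.39 and adjusted p = 0.0751.

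All 5 genes of NADPH supply and sugar metabolism were called lower in H0R than in A0R. Malic enzyme ME1 differed by -2.24 (SE 0.103) and the pentose phosphate genes PGD, TKT and TALDO1 by -2.13, -1.56 and -1.05. UGDH, which makes the sugar donor for glucuronidation, differed by -2.57 (SE 0.129). The epoxide hydrolase gene EPHX1 differed by -3.24 (SE 0.131), CYP4F3, which inactivates leukotriene B4 in leukocytes, by -3.14 (SE 0.236), and the efflux pump gene ABCC1 by -2.21 (SE 0.225). The probe sets of CYP4F3 and CYP4F11 stand for closely related sequences, and their separation is uncertain.

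The 2 genes higher in HTB56 were CYP1A1 and GSTM3. CYP1A1, the classic target of the aryl hydrocarbon receptor, had means of 5.90 ± 0.39 in H3R and 5.88 ± 0.37 in H0R, against 4.49 ± 0.10 in A3R and 4.23 ± 0.20 in A0R (SD, n = 3 each). It was 3.14 times higher in H0R than in A0R. GSTM3, a glutathione transferase of the mu class, measured 5.32, 5.12 and 5.10 on the H3R arrays and 5.83, 6.17 and 5.7 on the H0R arrays, against 4.72, 4.54 and 4.38 in A3R and 4.67, 4.38 and 4.96 in A0R. It was 2.34 times higher in H0R than in A0R and 1.55 times higher in H3R than in A3R, with no overlap in either pair. GSTP1, the pi-class transferase, was not called in either pair. Its difference was -0.52 between H0R and A0R (95% interval -1.16 to 0.13) and -0.18 between H3R and A3R (95% interval -0.83 to 0.47), and the first was called with the replicate block, at adjusted p = 0.000676. GSTP1 carries the same TGACTCAGC letters before its start as ME1, as printed above. The 95% intervals of their differences between H0R and A0R do not overlap. The part of the motif in the levels of either gene was not tested.

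The comparison of H3R with H0R asks what differed after selection in HTB56. Among the 41 genes 8 fell and 4 rose, and the strongest falls were those of the efflux pump gene ABCC2 (4.34 times lower), the P450 gene CYP1B1 (3.73 times lower) and NQO1 (2.4 times lower). Of all genes tested 19.5% were called in this comparison, 8.57% higher and 10.9% lower. The share of the 41 called was 29.3%, 9.76% higher and 19.5% lower. In a fit on the 6 HTB56 arrays alone 7 of the 41 were called, where 20.1% of all genes were. The median log2 change of the 41 was -0.13, against 0.02 over all genes tested. Without the 3 arrays set aside, 3 rose (SRXN1, ALDH2 and MGST1) and 3 fell (NQO1, ABCC2 and CYP1B1), 6 of 41, where 9.79% of all genes were called. With all arrays the signal summed over the 8 fibroblast markers had a log2 of 9.60 to 9.71 in H3R and 8.72 to 8.96 in H0R, and that over 5 leukocyte markers 9.46 to 9.88 in H3R and 8.92 to 9.17 in H0R. Of the markers, 7 of 8 and 4 of 5 lay above the 20th percentile on all arrays of either group, and DCN and PTPRC on no array. The sums add unlogged signals, so the brightest genes weigh most. COL1A1 averaged 8.02 in H3R and 6.61 in H0R, and CD68 9.51 and 8.86. The means of PDGFRB (6.72 and 6.91), THY1 (4.87 and 4.95), CD3E (4.04 and 4.11) and CSF1R (4.79 and 4.90) were lower in H3R. Those of the other fibroblast and leukocyte markers were higher. The part of these differences in the results on HTB56 was not tested.

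**Figure D3:**
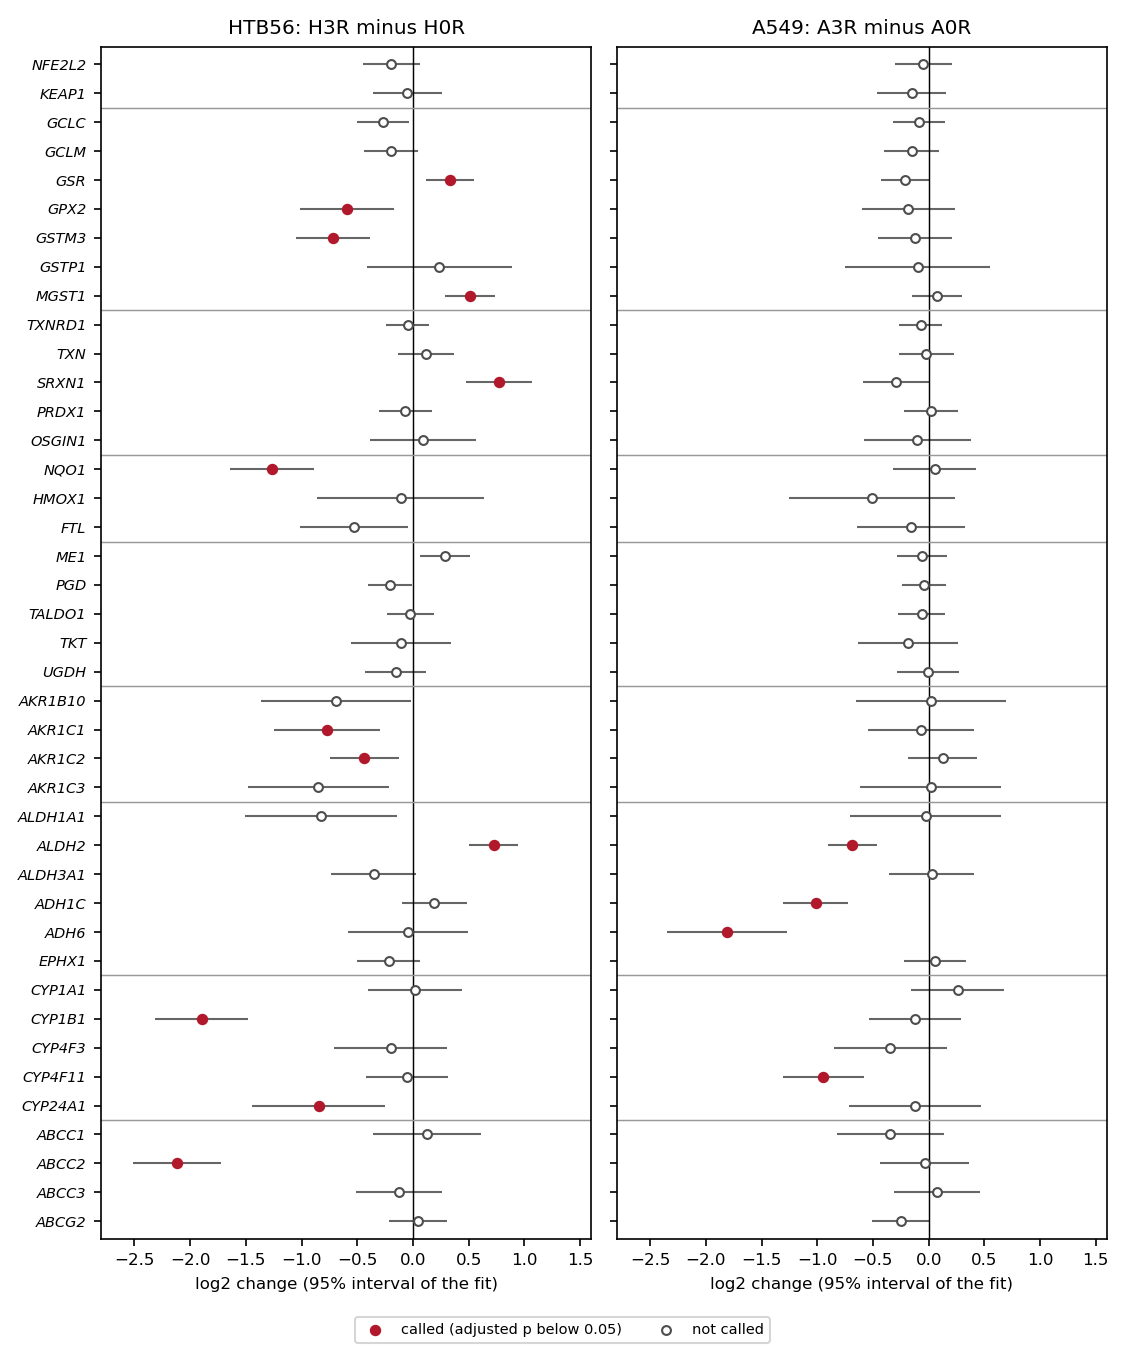
Log2 change after selection (x axis, 95% interval of the fit) of the 41 genes, in HTB56 (H3R minus H0R) on the left and in A549 (A3R minus A0R) on the right, in blocks by role. Red filled points were called, 12 in HTB56 and 4 in A549, and ALDH2 is the gene called in both, on opposite sides of 0.

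ABCC2, a pump of the apical membrane that exports glutathione and glucuronide conjugates, measured 5.90, 5.61 and 5.48 on the H3R arrays, against 7.73, 8.15 and 7.45 on the H0R arrays. In A549 it measured 11.72, 11.90 and 11.34 on the A3R arrays, against 11.81, 11.80 and 11.45 on the A0R arrays. The HTB56 groups were apart by more than 1 log2 unit and the A549 groups overlapped. The change in HTB56 was -2.12 (SE 0.185, adjusted p = 1.58e-06), and leaving out any 1 array left it between -2.28 and -1.93. The other pumps showed changes of 0.13 for ABCC1, -0.13 for ABCC3 and 0.05 for ABCG2, none called.

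CYP1B1, which hydroxylates oestrogens and polycyclic hydrocarbons, measured 5.14, 4.62 and 4.84 on the H3R arrays, against 6.39, 7.20 and 6.71 on the H0R arrays. In A549 it measured 10.32, 10.34 and 9.96 in A3R, against 10.54, 10.34 and 10.12 in A0R. All H3R arrays lay below all H0R arrays, and the A549 groups overlapped. The change in HTB56 was -1.90 (SE 0.194, adjusted p = 7.43e-06). Of the 10 tested neighbours of CYP1B1 on chromosome 2, 3 were called lower and 1 higher (median change 0.002). AHR, the gene of the aryl hydrocarbon receptor, fell by 0.70 (SE 0.102) in the same comparison. CYP1A1 had a change of 0.02 with a 95% interval of -0.40 to 0.44. NQO1 and ALDH3A1 also answer to that receptor, and their changes of -1.27 and -0.35 are described with the other genes here. The part of AHR in the changes of CYP1B1, CYP1A1, NQO1 and ALDH3A1 was not tested. CYP24A1 fell by 0.85 (SE 0.278, adjusted p = 0.045) with overlapping groups.

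NQO1 measured 9.56, 9.21 and 8.91 on the H3R arrays, against 10.50, 10.84 and 10.13 on the H0R arrays. In A549 it measured 12.74, 12.79 and 12.60 on the A3R arrays, against 12.76, 12.61 and 12.60 on the A0R arrays. The HTB56 groups did not overlap, whereas those of A549 did. The change in HTB56 was -1.27 (SE 0.174, adjusted p = 0.000121), and every replicate-number pair was lower in H3R, by 0.94, 1.63 and 1.22. The 5 tested genes on either side of NQO1 on chromosome 16 had a median change of 0.45, and 6 of these 10 were called higher and 0 lower. Over all genes tested 8.57% were called higher and 10.9% lower. Of the 10 neighbours of each of ABCC2, MGST1 and AKR1C2, 1 was called higher and 1 lower. For AKR1C1 2 were called higher and 1 lower, and for CYP24A1 0 higher and 1 lower. For GSR and GSTM3 1 was called higher and 0 lower. The regulators did not pass the test, with changes of -0.19 for NFE2L2 (95% interval -0.45 to 0.06) and -0.05 for KEAP1 (95% interval -0.36 to 0.26).

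**Figure D4:**
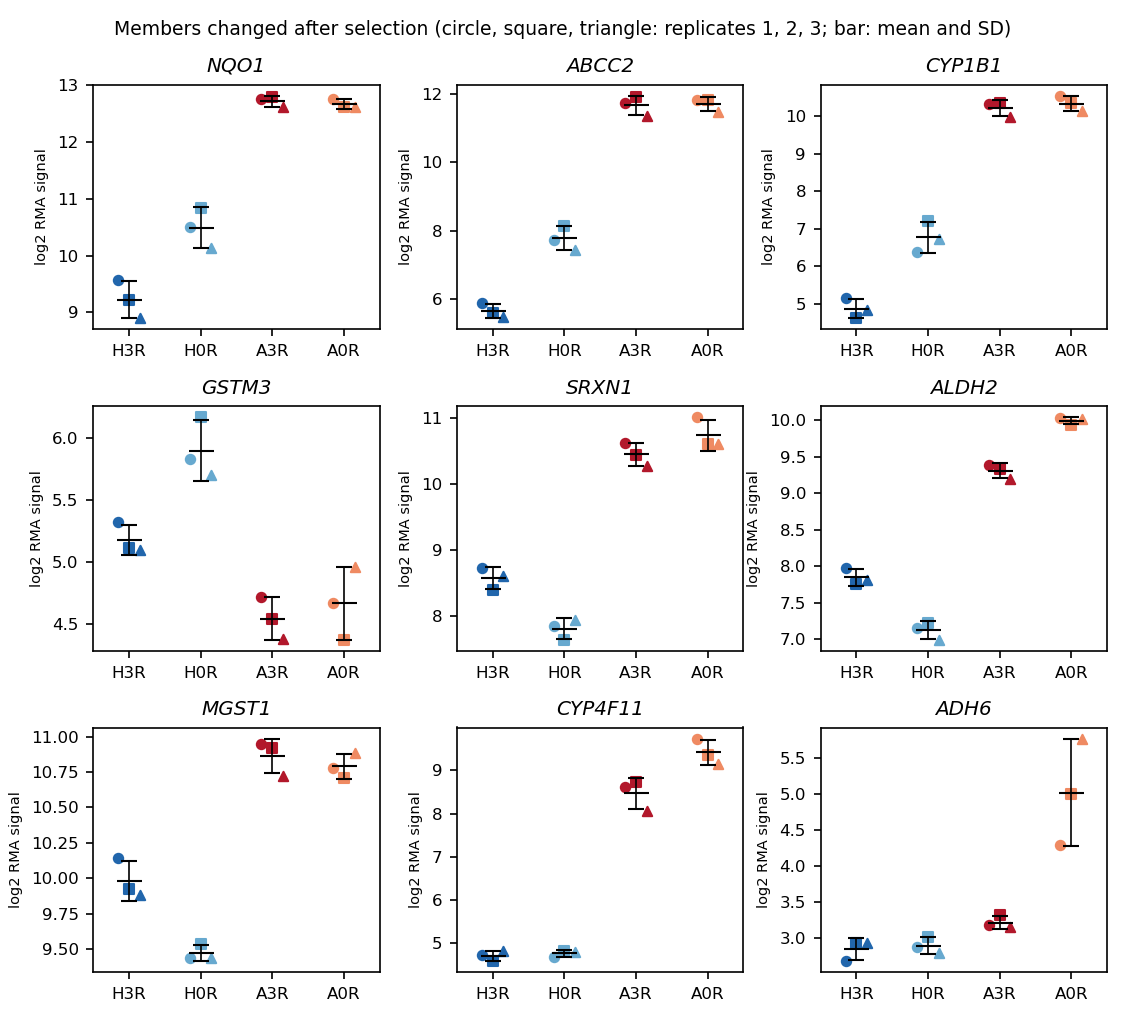
Log2 RMA signal (y axis, a separate scale in each panel) of 9 genes called after selection, in H3R, H0R, A3R and A0R. Circles, squares and triangles are replicates 1, 2 and 3, and bars give the mean and SD of 3 arrays; NQO1, ABCC2 and CYP1B1 lie lower in H3R than in H0R, SRXN1, MGST1 and ALDH2 higher, and CYP4F11 and ADH6 lower in A3R than in A0R.

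Among glutathione and thioredoxin genes the changes in HTB56 ran both ways. SRXN1 measured 8.72, 8.39 and 8.60 on the H3R arrays, against 7.84, 7.63 and 7.93 on the H0R arrays, and 10.62, 10.44 and 10.28 in A3R, against 11.01, 10.60 and 10.61 in A0R. Its rise in HTB56 was 0.77 (SE 0.140, adjusted p = 0.00111), and its A549 groups overlapped. Of its 10 tested neighbours on chromosome 20, 3 were called higher and 0 lower, among them TRIB3 at 0.65. MGST1, the membrane-bound glutathione transferase, measured 10.15, 9.92 and 9.88 in H3R, against 9.44, 9.53 and 9.43 in H0R, and 10.95, 10.92 and 10.72 in A3R, against 10.78, 10.71 and 10.88 in A0R. It rose by 0.51 in HTB56 (SE 0.105, adjusted p = 0.00286) with no overlap. GSR measured 10.11, 10.08 and 10.19 in H3R, against 9.71, 9.68 and 10.00 in H0R, and 12.02, 11.96 and 11.92 in A3R, against 12.22, 12.19 and 12.12 in A0R. Its rise in HTB56 was 0.33 (SE 0.102, adjusted p = 0.0338), and it was not called after median centring (adjusted p = 0.0705) or without any 1 of H0R replicates 1 and 2 and H3R replicates 1, 2 and 3, at adjusted p between 0.0656 and 0.142.

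The mu-class transferase GSTM3 fell in HTB56, with the per-array values given above. Its change was -0.72 (SE 0.156, adjusted p = 0.0043) with no overlap, and without the 3 arrays it was -0.55 at adjusted p = 0.0554. H0R replicate 2 was its highest H0R array, and H3R replicate 2 lay below its H3R mean. Leaving both out therefore had to shrink this fall, so the smaller change is a description and not a check. GPX2 fell by 0.60 (SE 0.197, adjusted p = 0.0464). Of its 10 tested neighbours on chromosome 14, 5 were called lower and 0 higher (median change -0.38), among them RAB15 at -1.47. The other genes of these 2 systems, GCLC, GCLM, GSTP1, TXN, TXNRD1 and PRDX1, and OSGIN1 had changes between -0.27 and 0.24, none called. With the replicate block GCLC was called lower, at adjusted p = 0.0276.

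The falls of AKR1C1, AKR1C2, GPX2 and CYP24A1 in HTB56 were smaller, and not called, without replicate 2 of H0R or of H3R. AKR1C1 changed by -0.77 (SE 0.223, adjusted p = 0.0241) and AKR1C2 by -0.44 (SE 0.145, adjusted p = 0.0483), both with overlapping groups. AKR1C3 and AKR1B10 had changes of -0.85 and -0.69 at adjusted p = 0.0593 and 0.158. Over the fits that left out 1 array each, the change of AKR1C3 lay between -1.15 and -0.42, and it was called without H0R replicate 1, H3R replicate 1 or H3R replicate 3, at adjusted p = 0.0158, 0.0491 and 0.0241, and after median centring, at adjusted p = 0.0419. H0R replicate 2 was the highest H0R array for 9 of the 9 genes bright in A549 and dim in HTB56, and H3R replicate 2 was the lowest H3R array for 8 of them. Without H0R replicate 2 the changes were -0.50 for AKR1C1, -0.30 for AKR1C2, -0.57 for CYP24A1 and -0.35 for GPX2, at adjusted p between 0.125 and 0.229. Without H3R replicate 2 they were -0.53, -0.36, -0.49 and -0.42 in the same order, at adjusted p between 0.127 and 0.218. Without all 3 arrays set aside they were -0.26, -0.22, -0.21 and -0.17, at adjusted p between 0.431 and 0.666. Replicate 2 was the highest H0R array and the lowest H3R array for each of these genes. Leaving it out therefore had to shrink their falls, so these smaller changes are a description and not a check. Over the 12 fits that left out 1 array each, AKR1C1 lost its call in 2, AKR1C2 in 8, GPX2 in 8 and CYP24A1 in 9. The largest falls in these fits were -0.98, -0.58, -0.74 and -1.14 in the same order. ABCC2 is among the same 9 bright genes and kept its call in each of these fits.

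**Figure D5:**
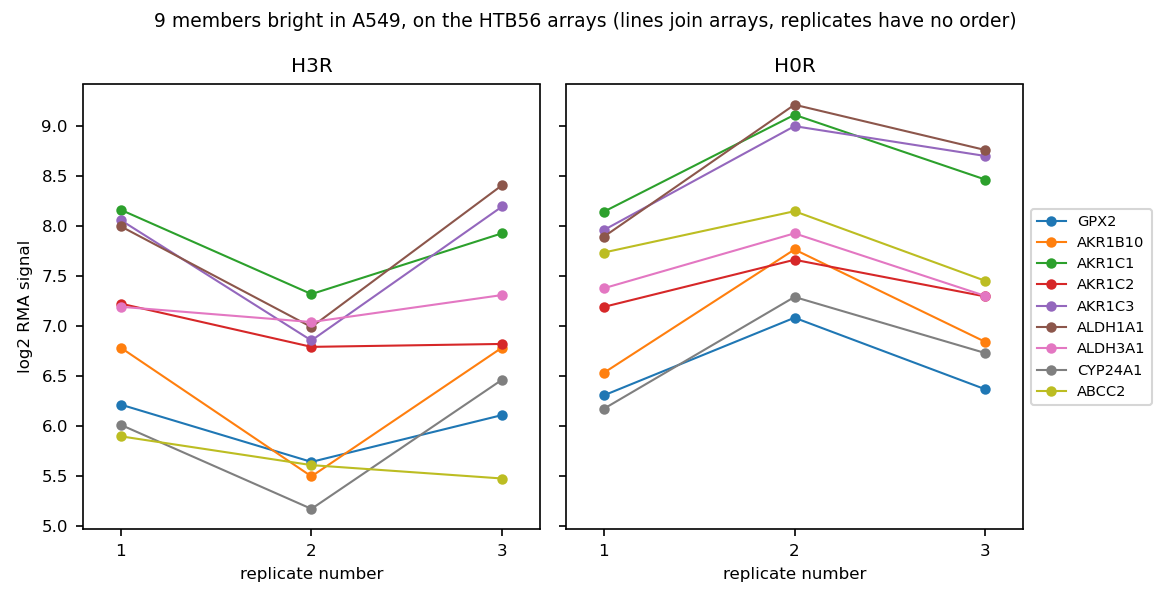
Log2 RMA signal (y axis) of the 9 genes bright in A549 on the 3 H3R arrays (left) and the 3 H0R arrays (right), by replicate number, which has no order. Each line joins the arrays of 1 gene; H0R replicate 2 is the highest of its group for 9 of 9 genes and H3R replicate 2 the lowest of its group for 8 of 9.

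The remaining genes showed smaller changes in HTB56. FTL, the ferritin light chain gene, changed by -0.53 (SE 0.227) at adjusted p = 0.134, and was called with the replicate block at adjusted p = 0.000212. ME1 changed by 0.29 (SE 0.103) at adjusted p = 0.0689, and was called with the replicate block at adjusted p = 0.00921. PGD, TALDO1, TKT and UGDH had changes between -0.20 and -0.03 and HMOX1 of -0.11, none called. ALDH1A1 and ALDH3A1 had changes of -0.82 and -0.35, EPHX1 of -0.22 and CYP4F3 of -0.20, none called. ALDH1A1 was called lower without H0R replicate 1 and without H3R replicate 3, at -1.19 and -1.13 with adjusted p = 0.0137 and 0.0243. Replicate 3 was the lowest array of all 4 groups for 10 of the 41 genes (24.4%), KEAP1, NQO1, FTL and GSTP1 among them, and for 12.4% of all genes tested.

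The comparison of A3R with A0R asks the same of A549. Of the 41 genes 4 fell, ADH6, ADH1C, CYP4F11 and ALDH2, and 0 rose. Of all genes tested 1.75% were called, 0.945% higher and 0.809% lower, while the share of the 41 called was 9.76%. ADH6 passed the filter on dim signals only through the A0R arrays, and without it the share was 3 of 40 (7.5%). The number at an unadjusted limma p below 0.05 was also 4. The median log2 change of the 41 was -0.09, against -0.01 over all genes tested. Without the 3 arrays set aside 3 fell, all but CYP4F11, where 0.791% of all genes were called. The summed fibroblast markers had a log2 of 8.29 to 8.46 in A3R and 8.26 to 8.41 in A0R, and the summed leukocyte markers 8.60 to 8.90 in A3R and 9.02 to 9.32 in A0R. CD68 averaged 8.54 in A3R and 8.98 in A0R and CSF1R 4.53 and 4.74, while PTPRC, CD3E and LYZ had higher means in A3R. The part of these markers in the results on A549 was not tested.

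ALDH2, the mitochondrial enzyme that oxidises acetaldehyde, measured 9.39, 9.33 and 9.20 on the A3R arrays, against 10.03, 9.94 and 10.02 on the A0R arrays. In HTB56 it measured 7.98, 7.75 and 7.81 on the H3R arrays, against 7.16, 7.23 and 7.0 on the H0R arrays. It was lower on all selected A549 arrays and higher on all selected HTB56 arrays. The change was -0.69 in A549 (SE 0.103, adjusted p = 0.00201) and 0.72 in HTB56 (SE 0.103, adjusted p = 0.000167). Of its 10 tested neighbours on chromosome 12, 5 were called higher in HTB56 (median change 0.37) and 0 were called in A549 (median change 0.02). The line difference in ALDH2 was -1.46 between H3R and A3R and -2.87 between H0R and A0R.

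ADH6 and ADH1C, alcohol dehydrogenase genes that lie in 1 cluster on chromosome 4, lay near or below the 20th percentile of the arrays (3.48 on average) in all groups but A0R. ADH6 measured 3.18, 3.31 and 3.15 in A3R, against 4.29, 5.00 and 5.77 in A0R, and 2.68, 2.93 and 2.93 in H3R, against 2.87, 3.02 and 2.79 in H0R. ADH1C measured 3.70, 3.39 and 3.85 in A3R, against 4.38, 4.86 and 4.72 in A0R, and 3.5, 3.64 and 3.65 in H3R, against 3.32, 3.44 and 3.46 in H0R. The A549 groups of both genes did not overlap. The changes in A549 were -1.81 (SE 0.250, adjusted p = 0.0011) for ADH6 and -1.01 (SE 0.137, adjusted p = 0.000998) for ADH1C. ADH6 had to differ between the groups, given the way it passed the filter, so its change and p are a description, and signals near background understate a change. ADH5, ADH1A and ADH1B, of the same cluster, had changes of -0.04, -0.17 and -0.18 in A549, none called.

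CYP4F11 measured 8.61, 8.74 and 8.06 on the A3R arrays, against 9.74, 9.36 and 9.15 on the A0R arrays. In HTB56 it measured 4.74, 4.58 and 4.81 on the H3R arrays, against 4.68, 4.82 and 4.80 on the H0R arrays. The A549 groups did not overlap and those of HTB56 did. Its change in A549 was -0.94 (SE 0.171, adjusted p = 0.00905), and it missed the threshold without the 3 arrays and in a fit on the 6 A549 arrays alone, at adjusted p = 0.0917 and 0.0542. CYP4F3, a close relative, had a change of -0.34 (95% interval -0.85 to 0.16), not called.

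The other 37 genes were not called in A549, and their changes lay between -0.51 for HMOX1 and 0.26 for CYP1A1. HMOX1 had a wide spread, with 9.49, 9.0 and 7.99 in A3R, against 10.11, 9.33 and 8.57 in A0R. The 95% interval of its change was -1.26 to 0.24. For NQO1 the interval was -0.32 to 0.43, for NFE2L2 -0.30 to 0.21 and for TXNRD1 -0.26 to 0.12. The aldo-keto reductase genes AKR1B10, AKR1C1, AKR1C2 and AKR1C3 had changes between -0.07 and 0.13.

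Whether the change after selection differed between the 2 lines was tested as the change in HTB56 minus the change in A549. It was called for 9 of the 41 genes, 6 higher and 3 lower in HTB56, where 11.8% of all genes tested were called, 5.22% higher and 6.58% lower. The 3 lower were ABCC2 at -2.08 (SE 0.262), CYP1B1 at -1.77 (SE 0.274) and NQO1 at -1.32 (SE 0.247). ALDH2, called in opposite directions in the lines, had a difference of 1.41 (SE 0.146) and SRXN1 of 1.06 (SE 0.197). The other 4 were ADH6, ADH1C, CYP4F11 and GSR, at 1.76, 1.21, 0.89 and 0.54, of which the value of ADH6 is a description, as above. Leaving ADH6 out, 8 of 40 were called. Without the 3 arrays 3 were higher and 3 lower, where 5.35% of all genes were called, and ADH6, CYP4F11 and GSR had adjusted p-values of 0.0544, 0.11 and 0.173. With the replicate block 8 were higher and 4 lower, where 20.4% of all genes were called, the additions being ME1, FTL and MGST1 at adjusted p = 0.0288, 0.0221 and 0.0356.

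In all 9 lists of related genes were examined beside the 41. Among other NRF2 targets 5 of 28 tested rose and 6 fell in H3R against H0R (39.3% called, against 19.5% of all genes), and 20 were lower and 5 higher in H0R than in A0R (89.3% called, against 45.2%), with a median difference between the unselected lines of -0.98. SLC7A11, the cystine importer that feeds glutathione synthesis, fell by 1.51 (SE 0.141) in HTB56 and the taurine transporter gene SLC6A6 by 1.17 (SE 0.201). PTGR1, a reductase of prostaglandins and lipid aldehydes, rose by 0.91 (SE 0.127) and TMTC3 by 0.83 (SE 0.104). In A549 1 of the 28 was called (3.57%, against 1.75% of all genes), ABCB6, a mitochondrial porphyrin transporter, at -0.48 (SE 0.112). The partners and controllers of NRF2 had 2 higher and 4 lower of 18 in HTB56 (33.3% called). In A549 1 of the 18 was called (5.56%), NFE2L3, a relative of NRF2, at 0.66 (SE 0.133). NFE2L3 fell by 0.55 (SE 0.133) in HTB56, whereas BACH1, which represses HMOX1 and other NRF2 targets, rose by 0.41 (SE 0.105) and DPP3, which competes with NRF2 for KEAP1, by 0.42 (SE 0.129).

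Of further enzymes and pumps, the NADPH and antioxidant genes called in HTB56 moved both ways, while the reductases and transporters called only fell. Of all genes 19.5% were called there, 8.57% higher and 10.9% lower. The share called was 33.3% of the reductases, 15.8% of the transporters, 33.3% of the NADPH genes and 27.6% of the antioxidant genes. Of 9 other aldo-keto and carbonyl reductases 3 fell and 0 rose, led by DHRS2 at -1.93 (SE 0.122) and CBR4 at -0.96 (SE 0.123). Of 19 other transporters 3 fell and 0 rose, led by ABCC4, a pump for cyclic nucleotides and prostaglandins, at -1.02 (SE 0.110) and its relative ABCC5 at -0.99 (SE 0.161). Of 15 other pentose phosphate and NADPH genes 2 rose, NNT, the mitochondrial transhydrogenase, by 0.92 (SE 0.114) and ME3 by 0.43 (SE 0.102), and 3 fell, among them IDH1 by 0.71 (SE 0.0975) and PRPS2 by 0.58 (SE 0.162). None of these 3 lists had a gene called in A549 by limma, where 1.75% of all genes were called. An unadjusted limma p below 0.05 was reached there by 1, 1 and 3 genes. Of 29 other antioxidant genes 4 rose in HTB56, led by GLRX3 at 0.80 (SE 0.121) and MSRB3 at 0.61 (SE 0.131), and 4 fell, led by SESN3 at -1.32 (SE 0.265) and GLRX at -0.58 (SE 0.154). In A549 1 rose, the metallothionein gene MT2A, by 0.99 (SE 0.225), and 1 fell, the secreted peroxidase gene GPX3, by 0.71 (SE 0.153). The share of these 29 called in A549 was 6.9%, against 1.75% of all genes.

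As for the transporters, the share called in HTB56 lay below that of all genes in the remaining lists. It was 15.2% of the P450 genes, 16% of the conjugation enzymes and 9.52% of the dehydrogenases. In A549, where 1.75% of all genes were called, the share was 6.06%, 4% and 4.76% in the same order. Of 33 other P450 genes and their regulators 1 rose in HTB56, CYP27C1 at 1.46 (SE 0.211), and 4 fell, led by CYP2U1 at -0.71 (SE 0.153) and AHR. In A549 CYP3A5, a drug-metabolising P450, rose by 0.76 (SE 0.161) and CYP26B1, which degrades retinoic acid, fell by 0.81 (SE 0.128). Of 25 other conjugation enzymes 2 rose in HTB56, the sulfotransferase gene SULT1B1 by 0.95 (SE 0.256) and GSTM2 by 0.65 (SE 0.154). In the same list MGST2 fell by 0.71 (SE 0.104) and SULT1C2 by 0.68 (SE 0.121), and in A549 MGST3 fell by 0.76 (SE 0.161). Of 21 other aldehyde and alcohol dehydrogenases ALDH6A1 rose by 0.92 (SE 0.129) and ALDH1A3 fell by 0.46 (SE 0.127) in HTB56, and ALDH1L2 rose by 0.89 (SE 0.171) in A549.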

How the data were processed

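Messenger RNA was measured on 12 arrays, 3 in each of H3R, H0R, A3R and A0R. Per the submitters' processing notes, the deposited log2 values were made with the RMA method of Affymetrix Expression Console, with no version given. RMA subtracts background, equalises the arrays' distributions and summarises each probe set, so it compresses dim signals and removes a shift common to all genes. Scanner files were not used here, so these steps could not be varied.

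Of 33297 probe sets 19460 had 1 gene symbol in the platform annotation, 1754 had several and 12083 were not listed, and 19429 matched the RefSeq table of GRCh38.p14 by Entrez identifier. Probe sets had to exceed the 20th percentile of the array (3.48 on average) on 3 or more of the 12 arrays, and the brightest stood for its gene. A model with a mean for each group was fitted to the 12 arrays together in R 4.3.3 with limma 3.58.1 (lmFit, eBayes), and two-sided p-values were adjusted over 16939 genes after Benjamini and Hochberg, with 0.05 as the threshold. The script was tested on simulated data. Promoter motifs were counted with Python 3.11.15.

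The genes described, their roles and the related lists were chosen with earlier results of these data known. Values on all arrays are given for genes called after selection or in the difference between lines, and for NFE2L2, KEAP1, NQO1 and the aldo-keto reductases. Of the related lists up to 2 called genes per direction and line are named, by size.

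The groups share replicate numbers, and what a number stands for is not stated in the labels. Deviations from the group mean had correlations of 0.160 to 0.549 where arrays shared a number and of -0.417 to 0.205 where they did not, and each of the 12 arrays had its highest correlation within its number. On this evidence from the data the arrays appear paired by number. The main fit left the replicate number out, so its SEs, p-values and counts do not use the pairing. Blocked fits (replicate number as a block) are quoted where they change a call. Alternatives were other filters on dim signals, the mean of probe sets, median centring, cyclic loess, a fit on the 6 arrays compared, the blocked fit, trend and robust settings of eBayes, a threshold of 0.01, leaving out each array and, added after seeing the data, leaving out 3 arrays together.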

Additional observations from a re-analysis of the deposited data

Results flagged for a closer look

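The change after selection differed between the lines for 9 of the 41 genes by limma's test of the difference itself (change in HTB56 minus change in A549), where 11.8% of all genes tested were called. The difference was -2.0792 for ABCC2 (adjusted p = 0.000112), -1.7729 for CYP1B1 (adjusted p = 0.000614) and -1.3188 for NQO1 (adjusted p = 0.00267), and for these 3 genes all H3R arrays lay below all H0R arrays while the A549 groups overlapped. It was 1.4077 for ALDH2 (adjusted p = 1.88e-05), which was higher on 3 of 3 H3R arrays than on any H0R array and lower on 3 of 3 A3R arrays than on any A0R array. SRXN1 had a difference of 1.065 (adjusted p = 0.00248) and GSR one of 0.5411 (adjusted p = 0.0244). ADH6, ADH1C and CYP4F11, lower in A3R than in A0R, had differences of 1.7637 (adjusted p = 0.00435), 1.2061 (adjusted p = 0.000864) and 0.888 (adjusted p = 0.0272). ADH6 passed the filter on dim signals only through the A0R arrays, where it is high, so its value is a description and not a test. Leaving ADH6 out, 8 of 40 were called. Leaving out 1 array each ended the call of CYP4F11 in 4 of 12 fits and that of GSR in 5 of 12, at adjusted p up to 0.0678 and 0.0671.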

How the results depend on the processing

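The number of the 41 genes called in H3R against H0R, 12, fell to 7 with the 6 arrays compared and at a threshold of 0.01, and to 6 without A0R replicate 2, H0R replicate 2 and H3R replicate 2. Leaving out 1 array each gave 7 to 13, lowest without H0R replicate 2 or H3R replicate 2. In A3R against A0R, 4 became 2 with a filter at the 40th percentile, which removed ADH1C and ADH6, and 4 in each fit that left out 1 array. Leaving out 1 array gave 7 to 10 of the 41 genes for the difference between lines, 38 to 39 in H0R against A0R and 37 in each such fit in H3R against A3R. Over all genes tested, the 297 called in A3R against A0R became 179 with the 6 arrays compared, 142 at 0.01, 134 without the 3 arrays and 179 to 286 without 1 array, lowest without A0R replicate 1. The 3298 called in H3R against H0R became 2039 at 0.01, 1658 without the 3 arrays and 2491 to 3432 without 1 array, and the 2000 for the difference between lines became 1036, 906 and 1524 to 1951. The replicate block gave 4, 14, 12, 40 and 38 of the 41 genes in A3R against A0R, H3R against H0R, the difference between lines, H0R against A0R and H3R against A3R, and 562, 4744, 3458, 9093 and 8933 of all genes (3.32%, 28.0%, 20.4%, 53.7% and 52.7%) in the same order. Calls among the 41 changed with the block only as given beside FTL, ME1, GCLC, MGST1, NFE2L2, KEAP1 and GSTP1, and for CYP24A1 in H3R against H0R, at adjusted p = 0.0503. No called value among the 41 genes changed sign in any of these fits. NQO1, ABCC2, CYP1B1, SRXN1, ALDH2 and MGST1 kept their calls in H3R against H0R in all of them. The causes of these changes were not tested beyond the fewer genes or arrays of a fit. Dim signals of ADH1C and ADH6 and the compression by RMA limit the size of the smallest levels.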
